A study of Mus musculus with 2 samples.

Results

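The genes described here are 76 mouse splicing factor genes, read in a comparison of open chromatin between fetal liver cells with and without BRD9. They were chosen by name, as the protein-coding genes whose symbols start with Sf3a, Sf3b, Srsf, Snrp, Snrn, U2af, Prpf or Hnrnp, and they make up 76 of 21900 protein-coding genes in the RefSeq table of GRCm38.p6, the assembly with the coordinates of mm10. Chromatin was assayed by ATAC-seq, in which a transposase cuts open DNA and leaves sequencing adapters behind. The control library was from CD45.2(+) Brd9fl/fl cells (replicate 1) and the knockout library from CD45.2(+) Vav1-iCre Brd9fl/fl cells (replicate 2). Both were C57BL/6, so the floxed Brd9 alleles are common to the groups and the Cre, driven by regulatory DNA of the blood cell gene Vav1, marks the knockout. The cells were taken at embryonic day 14.5 from fetal liver, sorted for c-Kit and against lineage markers, with 150000 in each library, and the sources used here do not give how many embryos were pooled. Each group has 1 library, so replicates and p-values are lacking, and a difference below is one between 2 libraries. In such bulk material, fewer cells with an open site and less opening in each cell cannot be told apart.

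Splicing removes introns from pre-mRNA in the spliceosome, which is built from small nuclear RNAs held in protein particles (snRNPs). U1 snRNP marks the start of the intron, the U2AF proteins mark its 3' end, U2 snRNP with the SF3A and SF3B proteins takes the branch point, and a tri-snRNP of U4, U5 and U6 then joins and is rearranged into the active enzyme. SR proteins and hnRNP proteins bind the transcript and shift which sites are used. The machinery is well known in blood, since SF3B1, SRSF2, U2AF1 and, less often, PRPF8 are mutated in blood cancers. BRD9, the bromodomain subunit of the non-canonical BAF remodelling complex, has a known link to splicing, because SF3B1-mutant cells mis-splice its transcript.

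Most of the genes had an open site at an end of the gene in both libraries. Peaks of both lists that shared at least 1 bp were merged into regions, and a region no more than 1 kb from a gene's end, on either side, was taken as its gene-end region. Such a region stood in both lists for 72 of the 76 genes, or 94.7% (exact Clopper-Pearson 95% interval 87.1 to 98.5), against 47.4% of all protein-coding genes (10376 of 21900). None of the 76 had a region in 1 list alone. Of the 21900 coding genes, 748 had one in the control list alone and 391 in the knockout list alone. The levels were above those of coding genes at large. Reads covering the peak summit, called summit reads, had a median of 179 in the control (31 to 828) and 112 in the knockout (20 to 534), where all coding genes with a shared region had medians of 120 and 74.

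Few of the genes differed between the libraries by much, and about as many lay above as below equality. The knockout library was shallower, with a relative depth of 0.640, so a scaled ratio is the knockout count over the control count, divided by that value, and all intervals on them are 95% intervals for counting error only. The scaled ratio was above 1 at 35 genes and below 1 at 37. Its median on the log2 scale was −0.01 (SD 0.31 over 72 genes), against 0.01 (SD 0.36) over all coding genes. The U1 gene Snrnp70 alone was at or above 1.5-fold, which is 1.39% of the 72 genes against 4.94% of coding genes. The genes at or below the same fold in the other direction were Snrnp35, Snrpf, Sf3b4 and Snrpg, or 5.56% against 4.59%. These shares differ with level. Of the 34 genes with a mean level of at least 200 reads, over the control and the depth-scaled knockout, 2.94% were higher and 0% lower, against 0.298% and 0.728% of such coding genes. Of the 38 under 200 reads, 0% were higher and 10.5% lower, against 6.85% and 6.17%. An interval that lay wholly above 1 was found at 3 genes, Hnrnpc, Snrnp70 and Snrpd3 (4.17% against 9.32%), and one wholly below 1 at 8 genes, Hnrnpr, Hnrnpu, Prpf38b, Sf3b4, Snrnp35, Snrpf, Snrpg and Srsf5 (11.1% against 7.59%). Of these, Hnrnpc, Prpf38b and Srsf5 fall outside the rule for named genes and were chosen after their values were seen.

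**Figure D1:**
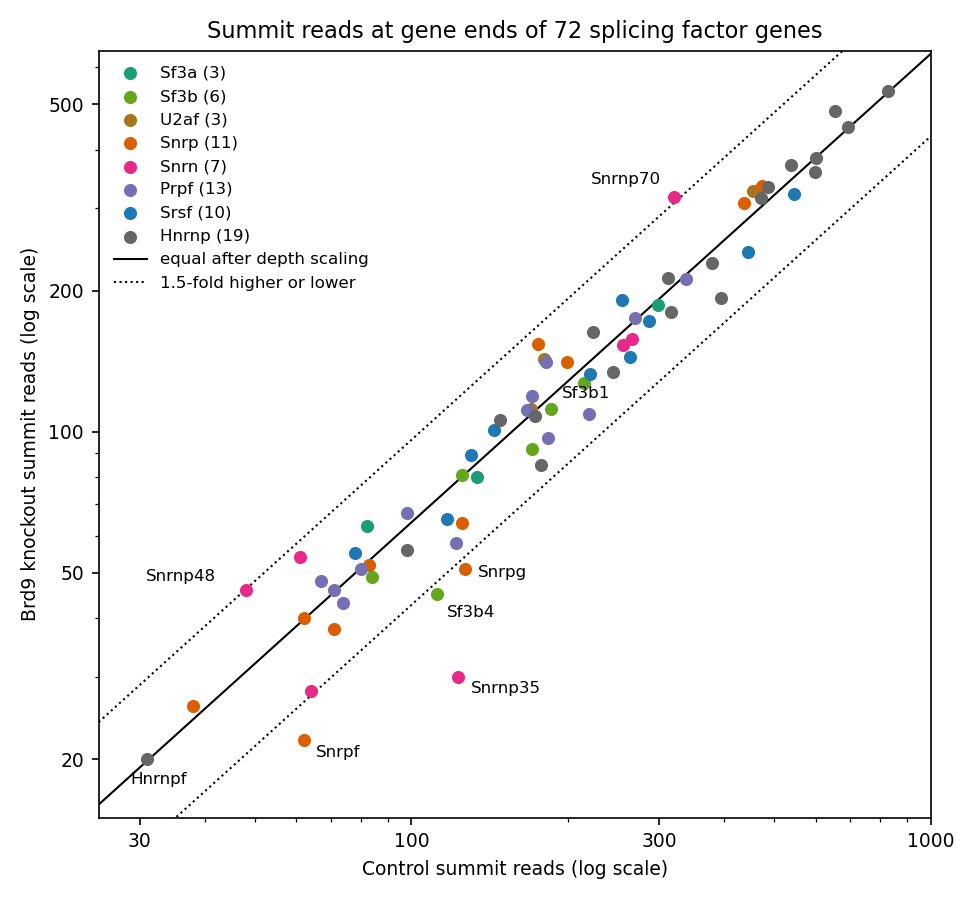
Summit reads at the leading gene-end region (the shared one with the most summit reads, both libraries added) of each of 72 splicing factor genes. Control is on the horizontal and Brd9 knockout on the vertical axis, both log scales, 1 point per gene coloured by symbol family. The solid line is equality after scaling by the relative depth of 0.640 and the dotted lines mark 1.5-fold; Snrnp70 lies above the upper line, and Snrnp35, Snrpf, Snrpg and Sf3b4 lie below the lower one.

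By the depth-scaled ratio, the families differed more in how far their genes scattered than in their medians. Family medians of the log2 scaled ratio ran from −0.13 for Sf3b to 0.17 for U2af. The 18 Snrp and Snrn genes with a shared region had an SD of 0.53, where counting error alone would give 0.25. They are set apart by symbol, as the Sf3a and Sf3b genes and some Prpf genes also encode snRNP proteins. Over the other 54 genes the SD was 0.20, where counting error would give 0.18. Coding genes also scattered more than counting error, with an SD of 0.36 against 0.28 over all of them. It was 0.40 against 0.32 for those with a mean level under 200 reads, and 0.22 against 0.13 for those of at least 200. Of the 5 genes past 1.5-fold, 4 were Snrp or Snrn genes and Sf3b4 was the other. Among the 18 Snrp and Snrn genes that is 5.56% higher and 16.7% lower, against 4.94% and 4.59% of coding genes. For coding genes with a mean level under 200 reads the shares were 6.85% and 6.17%. The spread leaned on few genes. It was 0.43 without Snrnp35 and 0.32 without the 4 Snrp or Snrn genes past 1.5-fold. Among the 7 Snrn genes it was 0.73 with Snrnp35 and 0.48 without it. With the deposited folds Snrnp35 alone was past 1.5-fold, and the spread by that measure was not computed. The difference in spread between families was not tested, since genes of a family are not replicates.

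**Figure D2:**
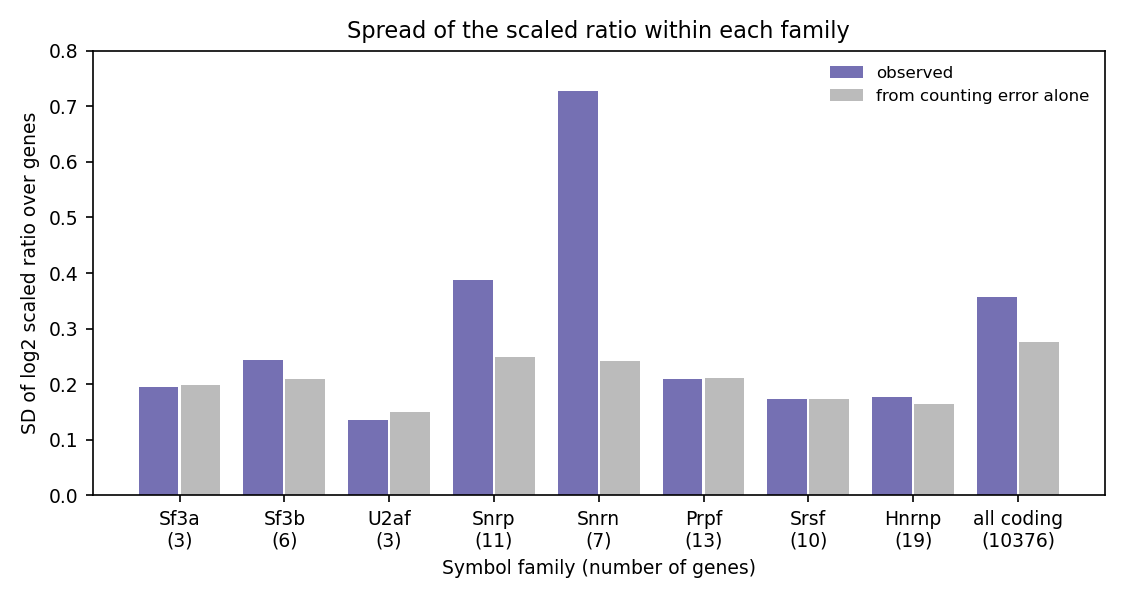
SD of the log2 scaled ratio over the genes of each symbol family and over all coding genes with a shared region (number of genes in brackets), with the SD that counting error alone would give beside it in grey. The Snrn bar (0.73) and the Snrp bar (0.39) stand above their counting values of 0.24 and 0.25, and the bars of the other 6 families lie close to theirs. The bar of all coding genes (0.36) also stands above its counting value of 0.28.

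The promoter sequences below belong to 4 of the 5 genes past 1.5-fold and to the 4 genes recurrently mutated in blood cancers. They are the 250 bases before the outermost annotated start, read 5' to 3' on the gene's strand, from the RefSeq promoter table of GRCm38.p6, which holds 66 of the 76 genes. Capitals mark matches to the motifs searched, on either strand. The Snrp and Snrn genes come first. Snrnp70 is at chr7:45395743-45395992 on the minus strand, Snrnp35 at chr5:124482905-124483154 on the plus strand, Snrpf at chr10:93589659-93589908 on the minus strand and Snrpg at chr6:86371290-86371539 on the plus strand.
Snrnp70: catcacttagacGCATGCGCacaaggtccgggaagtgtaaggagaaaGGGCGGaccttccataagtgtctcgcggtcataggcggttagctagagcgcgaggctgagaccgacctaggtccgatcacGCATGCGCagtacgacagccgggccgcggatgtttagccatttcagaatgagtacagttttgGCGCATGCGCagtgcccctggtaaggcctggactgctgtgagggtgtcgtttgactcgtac
Snrnp35: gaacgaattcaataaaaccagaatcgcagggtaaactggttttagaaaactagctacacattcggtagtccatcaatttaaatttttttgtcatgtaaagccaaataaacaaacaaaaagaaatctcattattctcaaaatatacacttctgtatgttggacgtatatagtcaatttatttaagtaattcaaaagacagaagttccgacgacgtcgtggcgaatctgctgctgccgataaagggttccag
Snrpf: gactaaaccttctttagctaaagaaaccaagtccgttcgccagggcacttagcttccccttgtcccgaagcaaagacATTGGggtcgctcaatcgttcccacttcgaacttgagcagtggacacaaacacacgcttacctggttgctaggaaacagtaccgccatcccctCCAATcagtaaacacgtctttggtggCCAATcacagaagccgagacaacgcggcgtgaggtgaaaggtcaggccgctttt
Snrpg: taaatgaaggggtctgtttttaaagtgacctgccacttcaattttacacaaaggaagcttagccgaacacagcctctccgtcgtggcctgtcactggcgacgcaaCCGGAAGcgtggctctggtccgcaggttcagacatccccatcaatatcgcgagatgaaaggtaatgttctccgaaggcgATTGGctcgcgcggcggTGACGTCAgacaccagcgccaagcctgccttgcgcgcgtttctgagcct
The mutated genes follow, with Sf3b1 at chr1:55027479-55027728 (minus strand), U2af1 at chr17:31658765-31659014 (minus), Srsf2 at chr11:116853095-116853344 (minus) and Prpf8 at chr11:75486527-75486776 (plus).
Sf3b1: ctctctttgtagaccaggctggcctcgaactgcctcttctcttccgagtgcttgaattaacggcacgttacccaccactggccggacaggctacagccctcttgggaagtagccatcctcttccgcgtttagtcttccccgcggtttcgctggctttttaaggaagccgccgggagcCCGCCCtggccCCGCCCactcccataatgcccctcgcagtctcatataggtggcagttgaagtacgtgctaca
U2af1: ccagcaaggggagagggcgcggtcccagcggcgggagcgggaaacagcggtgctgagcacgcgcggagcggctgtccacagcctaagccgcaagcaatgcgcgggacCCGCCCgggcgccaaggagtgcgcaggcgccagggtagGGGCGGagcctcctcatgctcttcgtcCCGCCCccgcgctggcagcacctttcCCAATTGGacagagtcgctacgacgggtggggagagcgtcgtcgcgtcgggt
Srsf2: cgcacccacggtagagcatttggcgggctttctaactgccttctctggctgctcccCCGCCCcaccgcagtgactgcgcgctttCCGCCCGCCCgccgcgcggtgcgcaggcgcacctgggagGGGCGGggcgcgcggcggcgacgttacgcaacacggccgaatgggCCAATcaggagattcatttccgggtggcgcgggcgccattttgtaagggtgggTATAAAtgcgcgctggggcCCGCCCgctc
Prpf8: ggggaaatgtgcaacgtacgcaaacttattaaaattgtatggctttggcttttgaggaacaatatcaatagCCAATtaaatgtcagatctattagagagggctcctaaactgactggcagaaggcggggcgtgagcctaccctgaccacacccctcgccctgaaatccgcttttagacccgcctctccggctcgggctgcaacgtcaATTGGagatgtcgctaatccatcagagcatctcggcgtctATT
In the Snrnp70 bases the capitals are 3 separate matches to the NRF1 motif GCATGCGC, which begin 238, 123 and 61 bases before the start, and 1 SP/KLF match (GGGCGG, 203 bases before). The Snrnp35 bases hold no searched motif. Those of Snrpf hold 3 CCAAT boxes, and those of Snrpg hold 1 ETS match (CCGGAAG), 1 CCAAT box and 1 CRE (TGACGTCA). Sf3b1, U2af1 and Srsf2 hold 2, 3 and 5 SP/KLF matches, of which a pair in Srsf2 overlaps. U2af1 and Srsf2 also hold CCAAT boxes and Srsf2 a TATA box (TATAAA), while Prpf8 holds CCAAT boxes alone, the last of which runs on past the start.

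Of the 9 SF3A and SF3B genes of U2 snRNP, all but Sf3b4 had scaled ratios between 0.840 and 1.20. Sf3b1, which encodes the protein that clamps the branch point, had 186 control and 112 knockout summit reads (chr1:55026924-55029088), a scaled ratio of 0.940 (0.737 to 1.20) and a ratio of deposited folds of 1.12. The region covers the annotated start, and the summits of the libraries lay 30 and 29 bases before it, within the printed sequence. Sf3b2, which contacts RNA near the branch point, had the most reads of the Sf3b genes, 215 and 127 (0.922, 0.735 to 1.15). Sf3b3, a scaffold of the same complex, had the fewest in the control, 84 and 49 (0.911, 0.627 to 1.31). All 3 were within counting error of equality.

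Sf3b4, which encodes an RNA-binding subunit that contacts the transcript upstream of the branch point, was the exception. It had 112 control and 45 knockout reads, a scaled ratio of 0.627 (0.434 to 0.894), at chr3:96172030-96173164, a region that also lies at an end of Mtmr11. The deposited fold over local background, from 10.9 in the control to 8.44 in the knockout, gave a ratio of 0.777, short of 1.5-fold. Local background at that site was 9.40 and 4.45 reads. Of the SF3A genes, whose products form a trimer that helps U2 bind, Sf3a2 had 299 and 186 reads (0.971, 0.805 to 1.17) and Sf3a3 had 82 and 63 (1.20, 0.850 to 1.69). The medians of the log2 scaled ratio were −0.04 for Sf3a and −0.13 for Sf3b.

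The 3 U2AF genes were above equality, each by less than its counting error, though by the deposited folds U2af1 and U2af2 were at 0.994 and U2af1l4 at 1.25. U2af1, the subunit that reads the AG at the end of the intron, had 170 control and 112 knockout reads (chr17:31658515-31659516; 1.03, 0.803 to 1.31). U2af2, its partner on the pyrimidine tract, had 454 and 326 (1.12, 0.970 to 1.30). U2af1l4, a close relative of U2af1, had 180 and 143 (1.24, 0.989 to 1.55).

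Snrnp70 stood apart in the direction of the knockout. It encodes U1-70K, the protein that grips the first stem-loop of U1 snRNA. Its gene-end region, chr7:45395278-45396446, covers the start and had 320 control and 317 knockout summit reads, for a scaled ratio of 1.55 (1.32 to 1.81). That was the highest ratio of the 3022 coding genes whose mean level was at least 200 reads. The summit lay 143 bases before the start in both libraries. The deposited folds gave a ratio of 1.06 (14.2 and 15.2), with a local background of 21.5 reads in one and 19.98 in the other. Background and summit were thus both nearly equal before scaling, and the call at this gene depends on whether the local background or the whole library sets the scale.

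Snrnp35, a protein of the U11/U12 particle of the minor spliceosome, stood apart in the other direction. Its region, chr5:124482752-124483907, had 123 control and 30 knockout reads, a scaled ratio of 0.381 (0.247 to 0.572). It ranked as the 10th lowest of 7354 coding genes with a mean level under 200. The summits lay 222 and 233 bases downstream of the outermost start. The deposited folds of 11.7 and 7.09 gave 0.607, so that Snrnp35 was the one gene past 1.5-fold by that measure too. The other Snrn genes of that particle had higher ratios, with intervals that do not overlap that of Snrnp35. As Snrnp35 was named for the lowest ratio among the splicing factor genes, that choice favours such a gap to any other gene. Snrnp48 had 48 and 46 reads (1.497, 0.977 to 2.29), just inside the fold threshold, and Snrnp25 had 255 and 153 (0.937, 0.762 to 1.15). Outside the name rule, the minor spliceosome genes Rnpc3 (0.977, 0.805 to 1.18), Zmat5 (0.935, 0.716 to 1.22) and Zcrb1 (0.802, 0.574 to 1.11) were also higher, the last with a lower bound just above the upper bound of Snrnp35. Snrnp25 and these 3 fall outside the rule for named genes and were added after their values were seen.

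The remaining Snrn genes serve the U5 particle and the tri-snRNP. Snrnp200, the helicase that unwinds U4 from U6, had 61 and 54 reads (1.38, 0.940 to 2.03). Snrnp27, a tri-snRNP protein, had 64 and 28 (0.683, 0.422 to 1.08), the value nearest to the threshold from within on the lower side. At counts this low neither interval left out 1.

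The Sm proteins form the ring of the U1, U2, U4 and U5 particles, and their genes lay on both sides of equality. Snrpf had 62 control and 22 knockout reads and a ratio of 0.554 (0.324 to 0.914; deposited folds 0.726), at chr10:93588988-93589789. Snrpg had 127 and 51, a ratio of 0.627 (0.444 to 0.874), at chr6:86371000-86372131, which is also an end of Fam136a. The deposited folds at Snrpg, 11.6 and 11.3, gave 0.973, as its local background was 10.1 and 3.62 reads. Snrpd3 was on the other side with 175 and 154 reads (1.37, 1.10 to 1.72), and its deposited folds gave 1.40. Snrpd2 had the most reads of the family, 474 and 334 (1.10, 0.954 to 1.27). Snrpb2, a U2 protein and not part of the ring, had the fewest control reads, 38 and 26 (1.07, 0.623 to 1.81). The intervals of Snrpf and Snrpg do not overlap that of Snrpd3, but these genes were named for extreme ratios, and that choice favours such a gap. The ring genes Snrpb (1.01), Snrpd1 (0.836) and Snrpe (1.11), which fall outside the rule for named genes, had intervals that included 1.

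**Figure D3:**
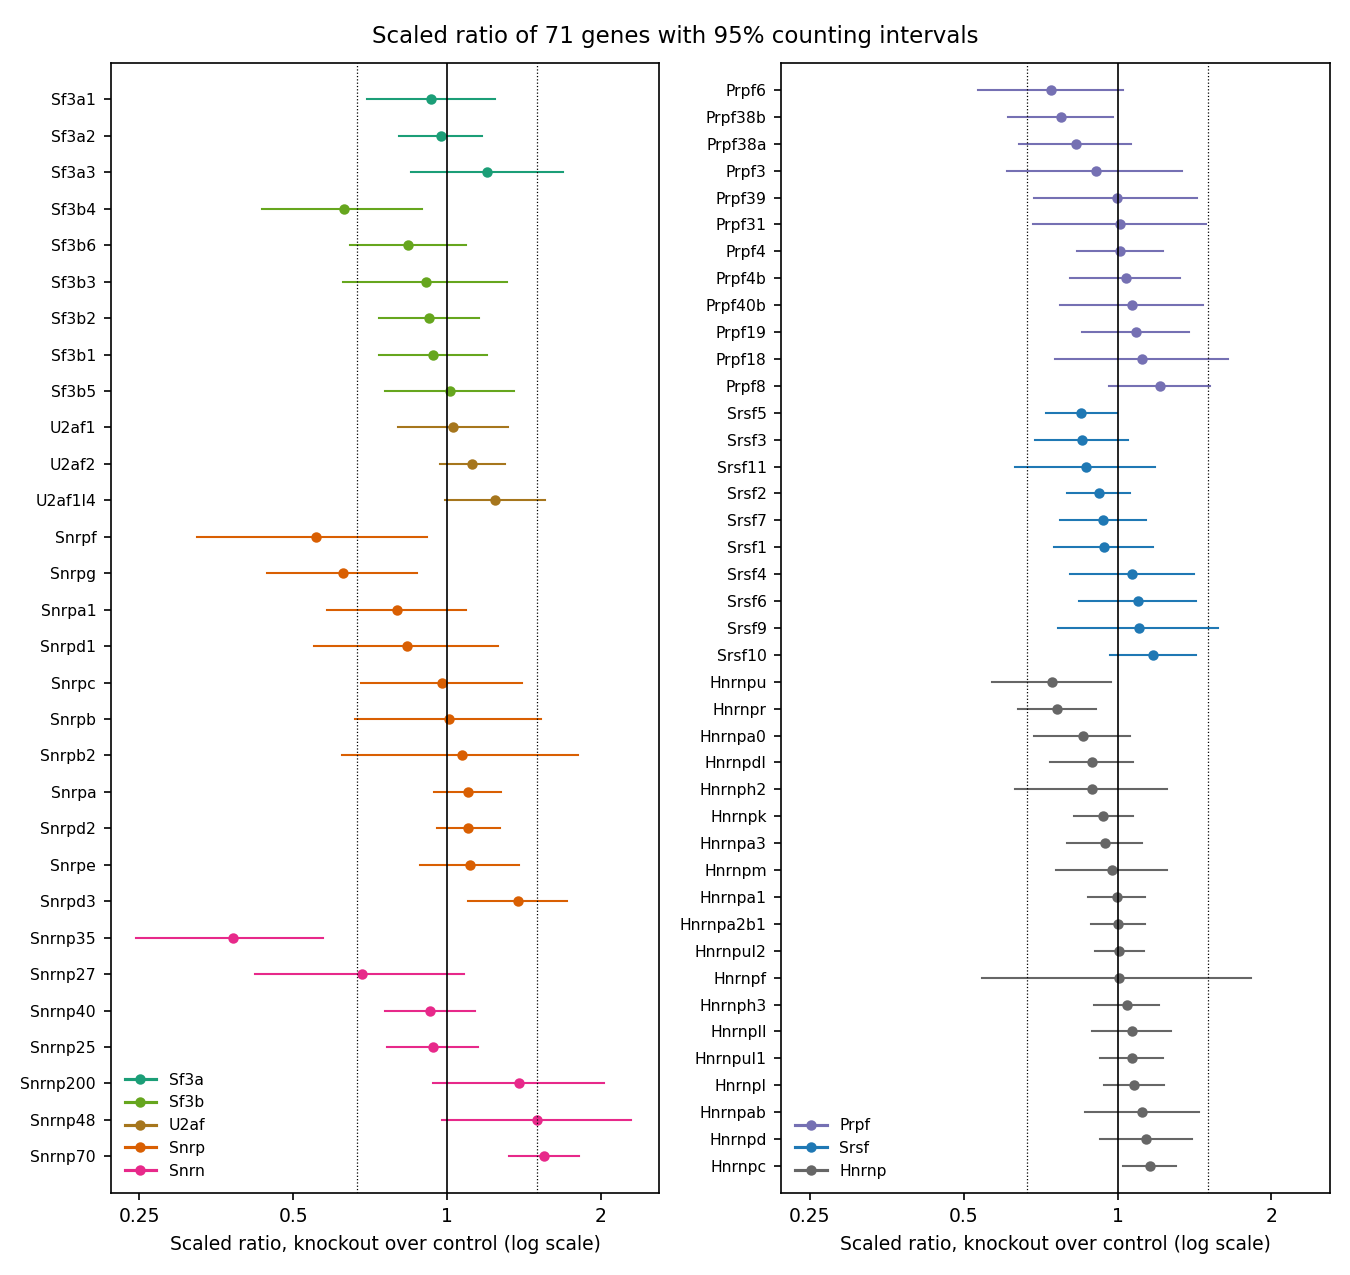
Scaled ratio of summit reads, knockout over control, for 71 of the 72 genes (log scale), with bars for the 95% counting interval, coloured by symbol family; the solid line is 1 and the dotted lines mark 1.5-fold. Of the genes past a dotted line, Snrnp70 (1.55) is on the right and Snrnp35 (0.381), Snrpf (0.554), Snrpg (0.627) and Sf3b4 (0.627) are on the left.

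The 13 Prpf genes, named for yeast pre-mRNA processing mutants, had no member past 1.5-fold and an SD of 0.21 in log2 ratio, equal to that of counting error. Prpf8, the core of the spliceosome's active site, had a leading region of 182 and 141 reads (1.21, 0.964 to 1.52), which lies 726 bp beyond the far end of the gene and also at an end of Rilp. The region at its own start, chr11:75486428-75487252, had 103 and 74 reads (1.12, 0.821 to 1.53). Prpf6, which bridges the parts of the tri-snRNP, had 122 and 58 (0.742, 0.533 to 1.02). Prpf18, a factor of the second catalytic step, had the fewest control reads of the family, 67 and 48 (1.12, 0.756 to 1.65).

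The 10 SR protein genes with a region had no member past 1.5-fold and an SD of 0.17, the same as counting error gives. Srsf2, which binds exonic enhancers, had the most reads, 546 and 321, a ratio of 0.918 (0.797 to 1.06), at chr11:116852778-116853915, a region it shares with Mfsd11. Srsf9 had the fewest, 78 and 55 (1.10, 0.765 to 1.58), and Srsf10, a splicing repressor when dephosphorylated, had the highest ratio at 1.17 (254 and 191 reads; 0.968 to 1.42). Srsf5 had 445 and 242 reads (0.849, 0.723 to 0.995), the one interval in the family that left out 1. Srsf12 had no gene-end region in either list.

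The Hnrnp genes were the most open family. Their medians were 379 control and 213 knockout reads, and the median width of their regions was 1406 bp, against 1166 bp over the 72 genes and 1038 bp over all coding genes. The highest of all 72 was Hnrnpul2 with 828 and 534 reads, a ratio of 1.01 (0.902 to 1.12). Hnrnpr had 395 and 193 (0.763, 0.639 to 0.909; deposited folds 0.933) and Hnrnpu, a nuclear matrix protein that binds chromatin-associated RNA, had 178 and 85 (0.746, 0.569 to 0.971). Hnrnpc, which coats the pyrimidine tracts of nascent transcripts, had 653 and 483 (1.16, 1.02 to 1.30). Hnrnph2, on chromosome X and the one gene of the 76 on a sex chromosome, had 98 and 56 (0.892, 0.631 to 1.25). Hnrnpl had the widest region of the 72 genes, 2592 bp, with 538 and 371 reads (1.08, 0.941 to 1.23), and was named after its values were seen. Of the 19 leading regions, 12 also lay at an end of another protein-coding gene, such as Ttc9c at Hnrnpul2 and Rpgrip1 at Hnrnpc. These 12 had a control median of 479 reads against 245 for the rest. For the Srsf genes the control medians were 287 with such a neighbour (3 genes) and 221 without, so the families lay closer without one.

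**Figure D4:**
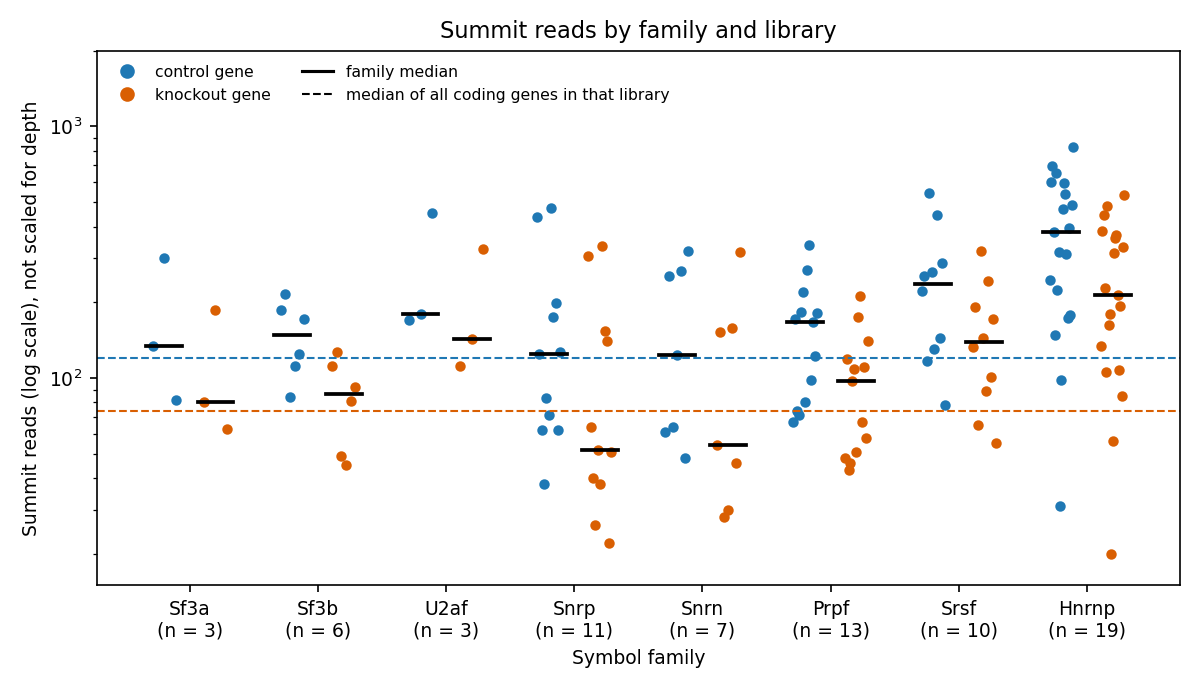
Summit reads (log scale, not scaled for depth) of each gene by symbol family, control in blue and knockout in orange, with the family median as a bar and the median of all coding genes in each library as a dashed line (120 and 74). Hnrnp medians of 379 and 213 are the highest, and the Snrp and Snrn medians in the knockout, 52 and 54, are the ones below the coding median of their library.

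Over all 72 genes, 32 leading regions (44.4%) were shared with an end of another coding gene, against 30.8% of coding genes with a shared region. The control median was 278.5 reads with such a neighbour and 146 without, as 160 and 103 for all coding genes. The log2 ratio hardly went with it, with medians of −0.00 and −0.02. A read at such a region cannot be assigned to either gene.

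The 4 genes with no gene-end region were Hnrnph1, Snrpn, Srsf12 and Hnrnpa1l2-ps2, which the table classes as protein-coding although its name marks a pseudogene. At Hnrnph1 and Snrpn this came from where the gene ends are drawn. The annotated starts of Hnrnph1 lie inside the gene, and a region there, chr11:50376962-50378544, had 313 and 199 reads (0.993, 0.827 to 1.19). Snrpn, an imprinted gene best known from neurons, had a region at an annotated start with 30 and 21 reads (1.09). By annotated starts, 64 of the 66 genes in the promoter table had a region in both lists. Hnrnpf likewise had 31 and 20 reads at its outermost start (1.01, 0.544 to 1.82) but 471 and 266 at an internal start (0.882, 0.756 to 1.03) and 265 and 150 at another. Its small value in the family is thus that of 1 of several starts.

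**Figure D5:**
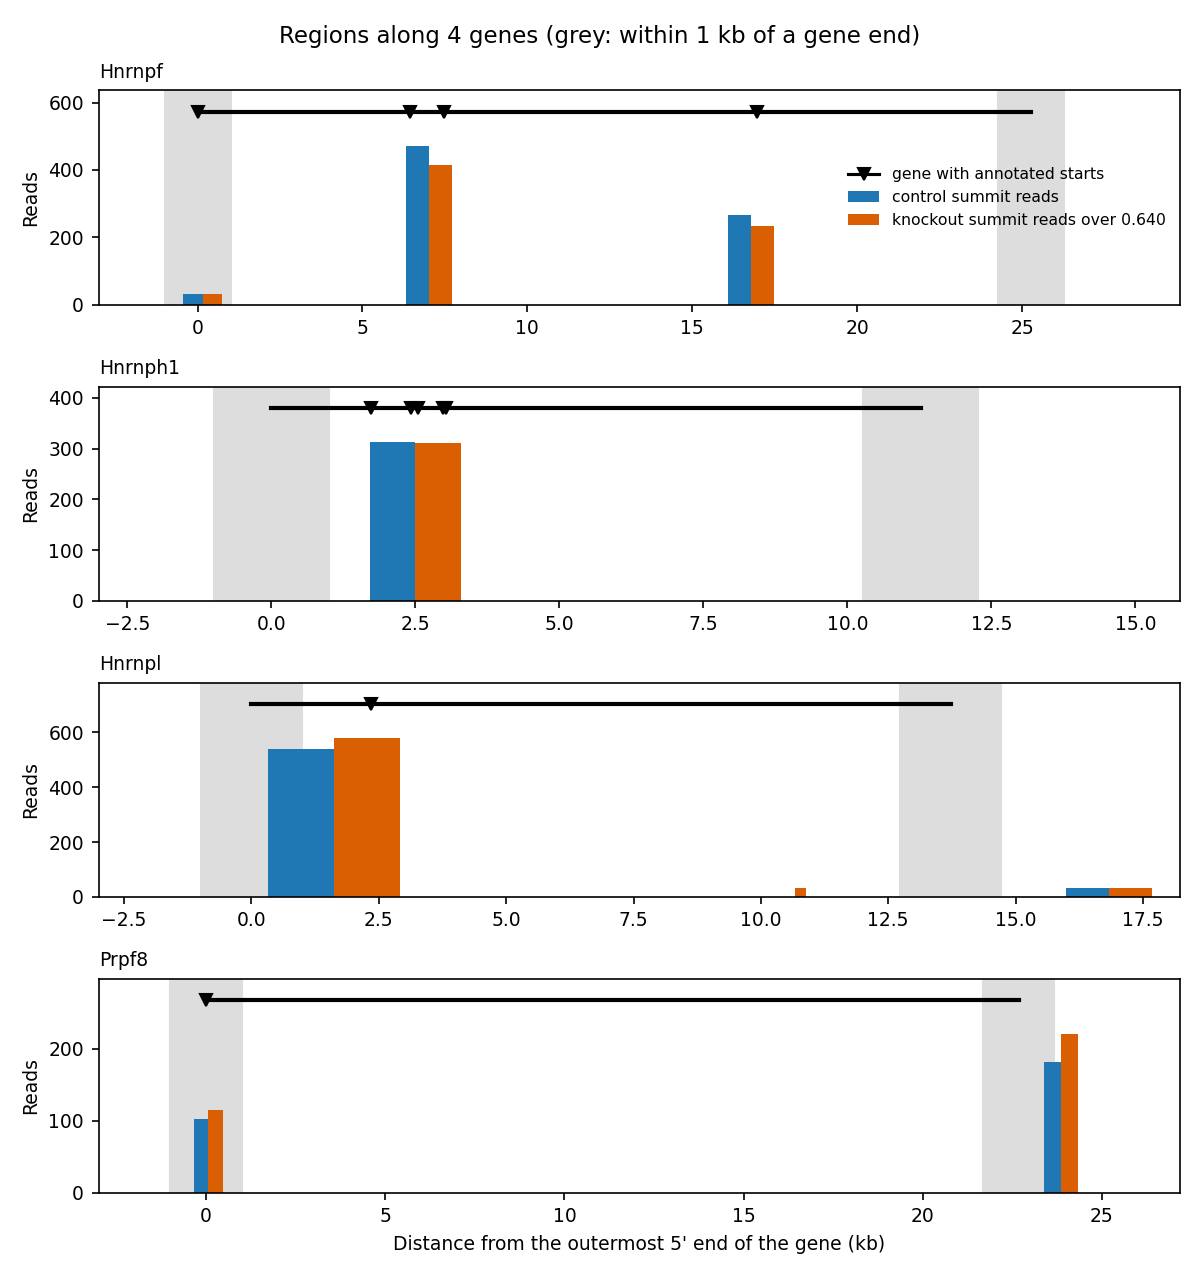
Regions along Hnrnpf, Hnrnph1, Hnrnpl and Prpf8, by distance from the outermost 5' end of the gene (kb), with control summit reads in blue on the left part of each region and knockout reads over 0.640 in orange on the right part. Black lines are the genes and triangles their annotated starts; the tall regions at Hnrnpf (471 control reads) and Hnrnph1 (313) lie outside the grey bands within 1 kb of a gene end, and that at the far end of Prpf8 (182) is partly inside one.

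The leading regions mostly lay at the starts, which the 1 kb limit from a gene end favours. Of the 62 leading regions whose gene is in the promoter table, 61 covered an annotated start, and Prpf8 was the exception. The counts in this paragraph were not made over all coding genes, so they do not set the splicing factor genes apart. The summit was upstream of the nearest start at 42 genes, with a median of 71 bases before it in the control and 86 in the knockout. The summits of the libraries were at most 50 bp apart at 44 of the 62 genes, with a median gap of 16 bp and the widest, 215 bp, at Hnrnpa1, a gene named here after its values were seen. At Snrnp70 the summits coincided and at Snrnp35 they were 11 bp apart, while at Snrpf, with a low ratio too, they were 138 bp apart.

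A further gene-end region was present at 17 genes, with a control median of 27.5 reads. Where shared, such a region has no more reads than the leading one by the rule that chose the leading region. At Prpf8 it is the region at the gene's own start (103 and 74 reads). Of the 17, 11 were shared, while 5 were listed for the control and 1 for the knockout alone. The control-only ones, at Prpf4, U2af1, Prpf38b, Srsf1 and Srsf5, had 9 to 18 reads, and the knockout-only one, at Snrpd1, had 6, so they were near the limit at which peaks were listed. At Hnrnpd, an AU-rich element binding protein, the regions differed. The region at the gene end had 224 and 163 reads (1.14, 0.923 to 1.40), and the one 834 bp inside had 92 and 30 (0.509, 0.325 to 0.776). Hnrnpd and the genes of the 1-list regions were named after their values were seen, and U2af1 alone of them falls under the rule. Just past the 1 kb limit lay regions at Hnrnpul1 (1149 bp; 69 and 35 reads) and Snrpg (1255 bp; 19 and 24), and just within it those at Sf3a2 (897 bp) and Hnrnpd.

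Inside the genes and away from both ends, 10 regions at 10 of the genes were counted. Of them 5 were shared, 2 were in the control alone and 3 in the knockout alone. The count is not complete, as it leaves out the shared regions at internal starts of Hnrnpf (471 and 266 reads) and Snrpn (30 and 21). Over all coding genes the shares were 50.2%, 32.4% and 17.4% of 10229 regions. Those in 1 list alone had at most 23 reads, whereas the shared one inside Srsf11 had 128 and 81 (0.988, 0.739 to 1.32), a gene named after its values were seen.

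The promoters of the 66 genes held ETS motifs more often than coding promoters at large. The windows searched ran from 250 bases before to 50 after the outermost start, and a match is a description, not a bound site. CCGGAAG was present on either strand in 21 windows, or 31.8%, against 11.9% of 17492 coding windows and 20.3% of the 8435 with a gene-end region in both lists. SP/KLF (GGGCGG) was in 68.2%, against 46.3% and 67.6%, and the CCAAT box (ATTGG) in 47.0%, against 39.2% and 40.4%. The E-box (CACGTG) was in 8 windows (12.1% against 7.91% and 10.8%). As many held the TATA box, against 13.3% and 6.43%. The GATA motif, AGATAA, was in 4 (6.06% against 9.94% and 5.96%), the NRF1 motif in 3 (4.55% against 3.61% and 6.12%) and the CRE in 2 windows (3.03% against 2.33% and 3.73%). YY1, searched as AAGATGGC, was in 3 (4.55% against 3.21% and 5.12%). CG dinucleotides had a median of 24 per window, against 13 over all coding genes and 22 over those with regions in both lists. Against the promoters with regions in both lists, the ETS share was the furthest above in percentage points, and the TATA share as a ratio. The TATA share rests on 8 windows, including that of Hnrnpa1l2-ps2, which had no gene-end region. Their matches began anywhere from 233 bases before the start (Snrnp48) to 5 bases after it (Hnrnpab).

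The Snrnp70 window was unusual among all of these. It held 4 separate NRF1 matches, the 3 printed above and the fourth at the start itself, and it was the only one of 17492 coding windows with as many. NRF1 is an activator of housekeeping genes that binds GC-rich palindromes. Of the 3 genes with the motif, Snrnp70 and U2af1l4 (1.24) were above equality and Srsf7 (0.936) below it, and the window of Snrnp70 was looked at because of its ratio. The median log2 ratio of the 516 coding genes with the motif was 0.04, against 0.01 for those without. The Snrnp35 window was poor in GC (38.3%) with 14 CG dinucleotides, and its 1 match, to SP/KLF, began 38 bases after the start. Genes with an ETS match had a median log2 ratio of −0.04 and those without −0.01, so the ratio differed little with the ETS motif.

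Other genes of the splicing machinery, 89 outside the name rule, had ratios above 1 more often than below. The list was drawn up with results of these data known. A shared gene-end region was found for 83, with a control median of 159 reads against 120 for coding genes. The median log2 ratio was 0.05 with 52 above and 31 below 1, or 62.7% above 1 against 51.5% of coding genes. The latter share differs with level, at 59.8% for a mean level of at least 200 reads and 48.1% under 200. Past 1.5-fold, 3 were higher (3.61% against 4.94%) and 0 lower (against 4.59%). They were Lsm6, of the ring on U6 snRNA, with 124 and 121 reads (1.52, 1.18 to 1.97), Qk, an RNA-binding regulator, with 89 and 89 (1.56, 1.15 to 2.12), and Mbnl3 on chromosome X with 57 and 67 (1.84, 1.27 to 2.66). The interval lay above 1 at 13 genes, or 15.7% against the 9.32% given above. For coding genes this share was 18.3% at a mean level of at least 200 reads and 5.64% under 200. The interval lay below 1 at Son alone, with 672 and 315 reads (0.732, 0.638 to 0.838; 1.20% against 7.59%), a value seen before the gene was named. Lsm7 (62 reads) and Srrm2 (20) had a region in the control list alone, Ppil1 (35) in the knockout list alone, and Celf2, Ptbp2 and Srpk2 in neither.

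The control list held 25330 peaks with a median of 37 summit reads and the knockout list 22348 with 28. Marker genes gave a mixed check of the sort. Of 10 progenitor genes, 6 had a gene-end region in both lists, with summed reads over the list of 542 and 225. Over all protein-coding genes the share with such a region was 47.4%, so a count of this kind on a short list says little by itself. Among the 6, Kit (109 and 65 reads; 0.931, 0.674 to 1.28), Myb, Runx1 and Flt3 had intervals that included 1, and Tal1 (214 and 61; 0.445, 0.329 to 0.594) and Lmo2 (62 and 20; 0.504, 0.288 to 0.846) had intervals below 1. Spn had one in the control alone (14 reads), and Ptprc, Cd34 and Gata2 had none. Of 9 markers of mature lineages none had one in both lists, and Cd4 alone had one, in the control, with 9 reads. Erythroid markers, which stem and progenitor cells need not carry, had one in both lists at 5 of 8 genes, with summed reads of 1159 and 625, and Slc4a1 (62) and Hbb-bs (50) in the control alone, while Gata1 had none. Of markers of other liver cells 2 of 10 had one, Apoa2 (281 and 217) and Col1a1 (29 and 19). The Brd9 gene end had 217 and 151 reads (1.09, 0.877 to 1.34), which does not test the deletion, as which part of Brd9 is floxed is not stated in the labels. Y-linked Ddx3y (33 reads) and Uty (18) stood in the knockout list alone, and Xist had 86 and 33 reads (0.599, 0.388 to 0.905). Their part in the differences at the splicing factor genes was not tested, and genotype and these sex-linked sites cannot be told apart with 1 library each.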

How the data were processed

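Peak lists of 2 libraries were analysed, 1 control and 1 Brd9 knockout. Trimmomatic 0.39, Bowtie2 2.4.4, Picard 2.26.2, deepTools 3.5.1, MACS2 2.2.7.1 and the build mm10 are named in the submitters' processing notes, and their settings, read shifting and duplicate handling are not given in the sources used here. Peaks were called by the authors in each library by itself. Each deposited peak has a score, which was not used further, a fold ratio of summit pileup to local background (each with a pseudocount of 1), a −log10 p-value and a −log10 q-value, the lowest deposited being 1.31 and 1.32 in the control and knockout lists (q below 0.05). The deposited values carry no read totals, so absolute depth is unknown.

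The whole number of reads covering each summit and the local background were recovered from the deposited fold and −log10 p. A whole number was found for 100% of peaks with a relative misfit of at most 7.3081e-06, and the method was checked on simulated peaks. The lowest background, 1.52 control and 0.971 knockout reads, gave the relative depth. Regions, genes and the leading region (the shared one with the most summit reads, both libraries added) are as described above. Counts were compared over all coding genes, with exact conditional binomial intervals for ratios. As the reads carry no molecular identifiers, they need not be independent molecules, so intervals cover counting error only. Ratios were not given above 3000 summit reads. The work used SciPy 1.17.1 and pandas 2.3.3 with NumPy 2.4.6 under Python 3.11.15, and plots were drawn with matplotlib 3.10.9.

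Named genes were the members with no shared gene-end region, those past 1.5-fold, the 8 highest and 8 lowest ratios among members with at least 20 control reads, the members with most and fewest reads in each family, Sf3b1, Srsf2, U2af1 and Prpf8, those on a sex chromosome, and other splicing genes past 1.5-fold with an interval leaving out 1. One member that this rule names is not reported here by itself, though it is in the counts. The members and lists were chosen with earlier results of these data known.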

Additional observations from a re-analysis of the deposited data

How the results depend on the processing

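No paired analysis was possible because each group has 1 library and the replicate numbers 1 and 2 are not shared; for the same reason no library could be left out. The median log2 ratio of the members stayed between −0.01 and 0.02 under all alternatives, and between 71 and 73 of 76 genes had a region in both lists (64 of 66 by annotated starts). The counts past 1.5-fold, 1 higher and 4 lower, did depend on the scale. With the depth taken from the median ratio 2 were higher, Snrnp48 at the threshold being added. With the deposited folds 0 were higher and 1 lower, Snrnp35, and with an interval leaving out 1 as the call 3 were higher and 8 lower. The cause was not tested. Of the genes named one by one with a ratio, 4 moved beyond their counting interval with the deposited folds (Hnrnpr 0.933, Snrnp35 0.607, Snrnp70 1.06 and Snrpg 0.973). None of the 5 past 1.5-fold changed direction, but 12 of 31 named ratios crossed 1 with the deposited folds, all with a counting interval that included 1. By annotated starts 1 of 26 did, Hnrnpf. The ratios of single genes by annotated starts, the median with a −log10 q of at least 5 or 50% overlap (−0.01 in both), and the spread without single genes were chosen after seeing the data. Summit reads limit the precision: at 30 knockout reads the interval of Snrnp35 ran from 0.247 to 0.572.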
